A study of Mus musculus with 2 samples.

Results

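The genes described here encode the receptors of the interleukin-6 (IL-6) cytokine family and the JAK/STAT3 pathway behind them, read in Müller glia (MG), the principal glia of the retina, with and without light damage. They were chosen by name and not by a cut on their values, although earlier results of these data were known. The ligand gene is Lif, and the receptor genes are Il6st, Lifr, Osmr and Cntfr. The others are the kinase genes Jak1 and Jak2, the transcription factor gene Stat3, and Socs3 and Pim1, which the pathway switches on. Together they are 10 of 20422 genes with a value. They were read by 166 of the 241576 probe sets of the array, and every probe set counted was annotated to a single gene. Genes whose mean log2 level over both arrays reached 5 are called the counted genes from here on, and all 10 were among them.

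Cytokines of the IL-6 family share the signalling subunit gp130, the product of Il6st, and differ in the partner that gp130 joins. Leukemia inhibitory factor binds the partner encoded by Lifr, oncostatin M in mice mainly that encoded by Osmr, and ciliary neurotrophic factor needs in addition the anchored subunit encoded by Cntfr. Receptors of this kind carry JAK kinases, which phosphorylate STAT3. STAT3 then enters the nucleus and drives its target genes, among them Socs3, whose product binds gp130 and JAK and shuts the signal down. In the retina, leukemia inhibitory factor made by a subset of MG is known for protecting photoreceptors from light, and MG themselves respond to the family by activating STAT3.

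MG were sorted from adult retinas by fluorescence. In the study's reporter line (S129 background) the Rlbp1 promoter drives a Cre that tamoxifen activates (Rlbp1-creERT2), and tdTomato is then made from R26-stop-flox-CAG-tdTomato in MG. For light damage mice this line was crossed to the albino Swiss Webster strain with the Rpe65 variant that modifies light sensitivity, and a Hes5-GFP reporter (S129 background) crossed to the same strain was also in use. Which line and background supplied the control array is not stated, so strain background and light damage cannot be told apart here. For the control, RNA of 12 undamaged retinas was pooled on a single array. For light damage, 10 retinas were pooled, taken 7 days after the mice had spent 8 hours in white light at 10000 lux. Retinas were dissociated with papain before the sort. With 1 array per condition there was no replicate check and no test, and the number of arrays limits the precision. A gene's difference is the median, over its probe sets, of light damage minus control on the log2 scale. The SD given with it is the spread of those probe sets, which share the same arrays, and not a spread between animals.

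Levels of all genes correlated between the arrays with a Pearson r of 0.951, given as a description across genes. The MG markers were present on both arrays: 16 of 16 had control levels from 9.16 to 13.4 and their median difference was −0.11. Their median level was 11.5 in the control and 11.2 after light damage. Rod markers were also high. Their median was 12.0 in the control and 10.9 after light damage, with 13 of 13 differences below 0 and 6 of them at −1 or less. Summed linear levels were 49290 and then 50825 for the MG markers, and 71001 and then 39066 for the rod markers. By these lists the rod sum was the larger in the control. In pooled sorted RNA, fewer cells of a type and less RNA per cell cannot be told apart. Xist, the RNA of the inactive X chromosome of female cells, stood at 9.79 in the control and 4.85 after light damage by a single probe set. This was the largest drop of all counted genes (−4.94). The sex of the pooled mice is not given. With 1 array per condition, sex and light damage cannot be told apart, and the part of sex in the results was not tested.

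Of the 10 genes, 3 were higher by 1 or more after light damage (Socs3, Osmr and Pim1), none was lower by 1 or more and 7 lay within 1. Of all 16541 counted genes, 1.75% were higher by this rule and 3.48% were lower (289 and 575 genes). Quantile normalization turned these counts into 359 and 429, and removal of a loess trend into 354 and 439. Among genes with 4 or more probe sets, the number that every one of the 10 genes had at least, these shares were 1.51% and 3.5%. The genes therefore divided: 8 were above 0 and 2, Lifr and Jak2, were below. The median of the 10 was 0.67 (SD over genes 0.86), against −0.03 over all counted genes (SD 0.50). With a threshold of 0.58, or 1.5-fold, Stat3 and Cntfr joined the higher genes, giving 5, and Jak2 was the 1 lower gene, where 8.05% of all genes were higher and 13.9% were lower.

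**Figure D1:**
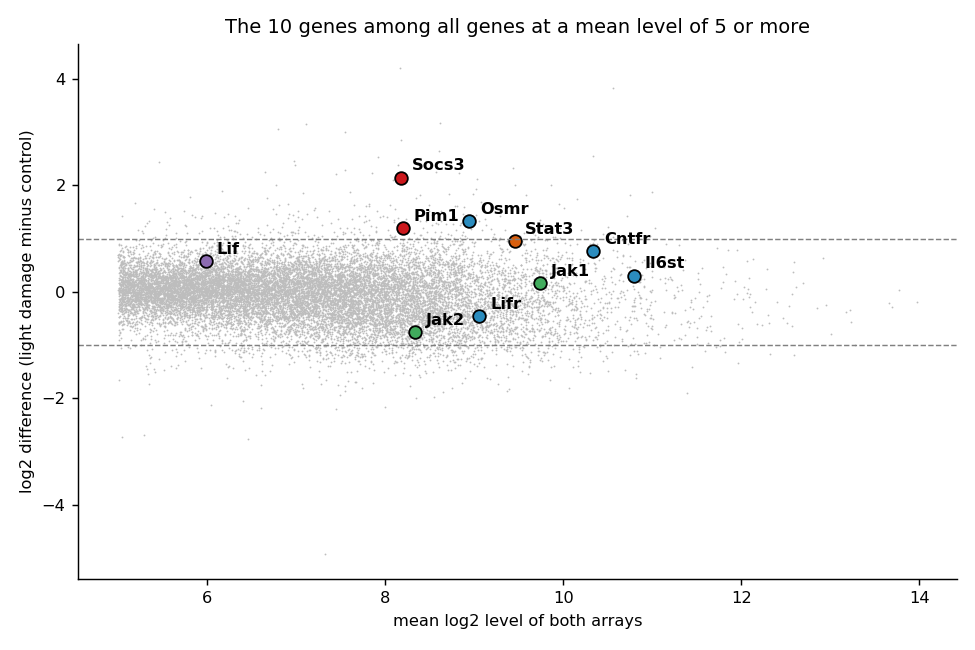
Each grey point is a counted gene, with the mean log2 level of both arrays on the x axis and the log2 difference (light damage minus control) on the y axis; coloured points are the 10 genes and dashed lines mark 1 and −1. Socs3, Osmr and Pim1 lie above the upper line, and Lifr and Jak2 are the 2 genes below 0.

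Single probe sets are the values from which the gene medians were taken, so they are not a second result. Genes with more probe sets weigh more in the shares that follow. Of the 166 probe sets, 116 (69.9%) were above 0 and 25.3% were higher by 1 or more, against 47.7% and 10.2% of all 212138 probe sets of 1 gene. At the other end 7.83% were lower by 1 or more, against 13.2% of all. Those 13 lower probe sets belonged to Jak2 (9), Lifr (3) and Lif (1).

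**Figure D2:**
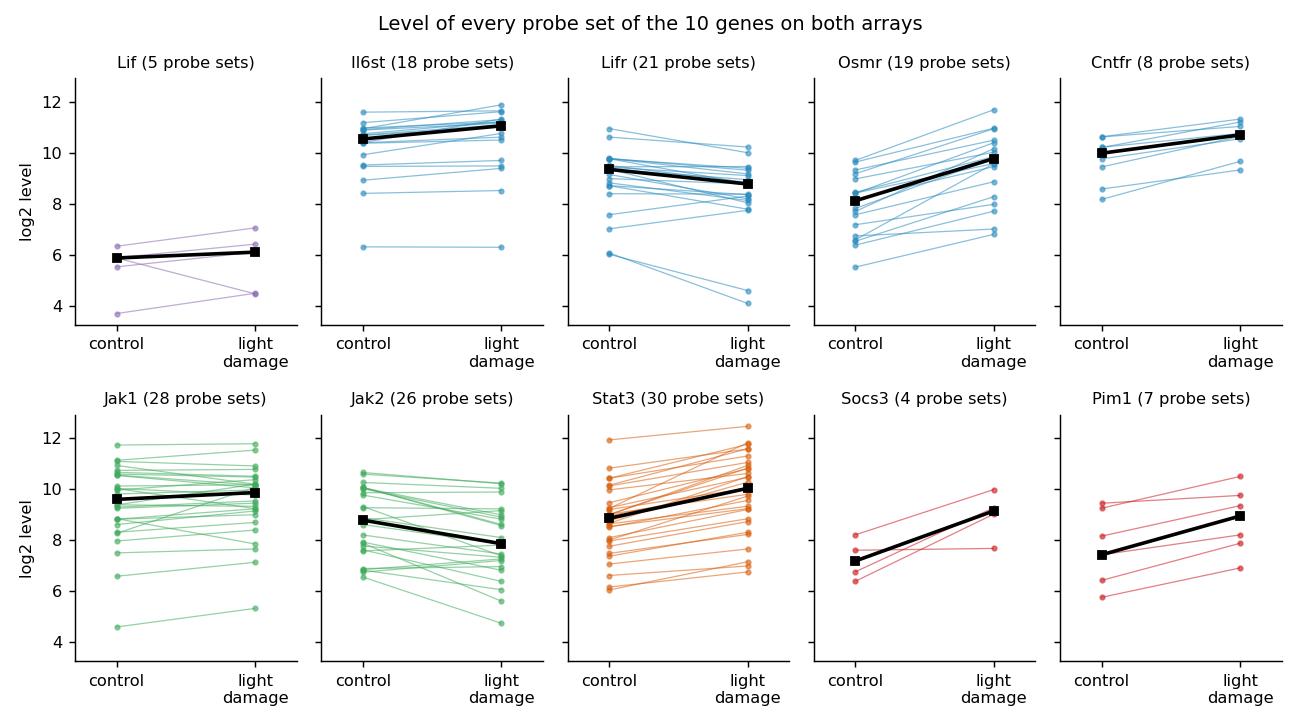
Each thin line joins the log2 level (y axis) of 1 probe set on the control and the light damage array (x axis), with 1 panel per gene, and the thick black line joins the medians of the probe sets. The lines of Osmr, Stat3 and Pim1 rise together, those of Jak2 and most of Lifr fall, and those of Jak1 run in both directions.

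Lif, which encodes leukemia inhibitory factor, was the member read nearest to the background. Its 5 probe sets had levels of 3.69, 5.52, 5.87, 5.88 and 6.33 on the control array and of 4.49, 6.10, 4.46, 6.41 and 7.05, in the same order, on the light damage array. All but the third in this order were higher after light damage, and the levels of both arrays overlapped. The difference was 0.58 ± 0.93 (SD, 5 probe sets), or 1.49-fold, with 4 probe sets between 0.53 and 0.79 and 1 at −1.41. The value fell to 0.24 when the probe sets were averaged and to 0.365 with an offset of 32 added to the linear signals. The study named Lif among genes higher after light damage on these arrays, and it reported a larger increase than the one here. The direction of Lif is therefore not independent evidence.

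Among the other ligands of the family, Osm alone passed the threshold. Of 8 with a value, 7 were counted genes. None of these reached 1, a single gene passed −1, and the median was 0.16. The lower gene was Osm, which encodes oncostatin M, at 6.04 in the control and 4.65 after light damage (−1.19 ± 0.65, 5 probe sets), but it lay within 1 with the offset or the mean of its probe sets and was at 0.20 in its highest-level probe set. Osm and Lif are direct neighbours in the genome with no protein-coding gene between them, and they lay on opposite sides of 0. Clcf1, a cytokine that signals through the Cntfr subunit, stood at 0.48 ± 0.52, the cardiotrophin genes Ctf2 and Ctf1 at 0.40 ± 0.26 and 0.29 ± 0.13, and Il27 at 0.16 ± 0.51.

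The 4 receptor genes did not move as a unit. Osmr, the oncostatin M partner of gp130, stood higher. Its 19 probe sets ranged from 5.51 to 9.69 on the control array, with a median of 8.11, and from 6.80 to 11.7 after light damage, with a median of 9.77. All 19 probe sets were above 0 and 17 were higher by 1 or more, with a difference of 1.33 ± 0.61 (2.52-fold), rank 114 of 16541. Of 4413 counted genes with 15 or more probe sets, 0.952% had all of them above 0, Osmr and Stat3 included. The probe set with the highest level went from 9.69 to 11.7, a difference of 1.99.

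Cntfr, the anchored subunit for ciliary neurotrophic factor, also stood higher, within 1. Its 8 probe sets had control levels from 8.17 to 10.6 (median 9.98) and light damage levels from 9.32 to 11.3 (median 10.7). All 8 were above 0, from 0.41 to 1.49, and the difference was 0.77 ± 0.35 (1.70-fold).

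Il6st, the gp130 gene itself, differed less. Its 18 probe sets ran from 6.31 to 11.6 in the control (median 10.53) and from 6.29 to 11.9 after light damage (median 11.05). None reached 1 in either direction and 17 lay above 0, with a difference of 0.30 ± 0.29 (1.23-fold). The probe set with the highest level differed by 0.05.

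Lifr, the partner that leukemia inhibitory factor binds, was the receptor gene that stood lower. Its 21 probe sets ranged from 6.01 to 10.9 on the control array (median 9.34) and from 4.09 to 10.2 after light damage (median 8.77). Of these 18 were below 0 and 3 were above, and the difference was −0.46 ± 0.64, or 1.38-fold lower. The probe set with the highest level differed by −0.95. The 2 largest drops, of −1.98 and −1.42, came from probe sets that ended below 5 on the light damage array, where the background limits a difference.

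Osmr and Lifr, 2 partners of the same subunit and direct neighbours in the genome, thus differed in opposite directions. The log2 ratio of Osmr to Lifr was 1.79 higher after light damage, a 3.47-fold shift in their relative signals, while that of Osmr to Il6st was 1.03 higher and that of Cntfr to Lifr 1.23 higher. Between the brightest probe sets, those with the highest level, the first shift was 2.93 (7.63-fold) and that of Osmr to Il6st 1.94. Single probe sets overlapped, since the lowest Osmr difference (0.27) lay below the highest Lifr difference (0.73). Such ratios show unequal change and say nothing of the amounts of the receptor proteins.

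**Figure D3:**
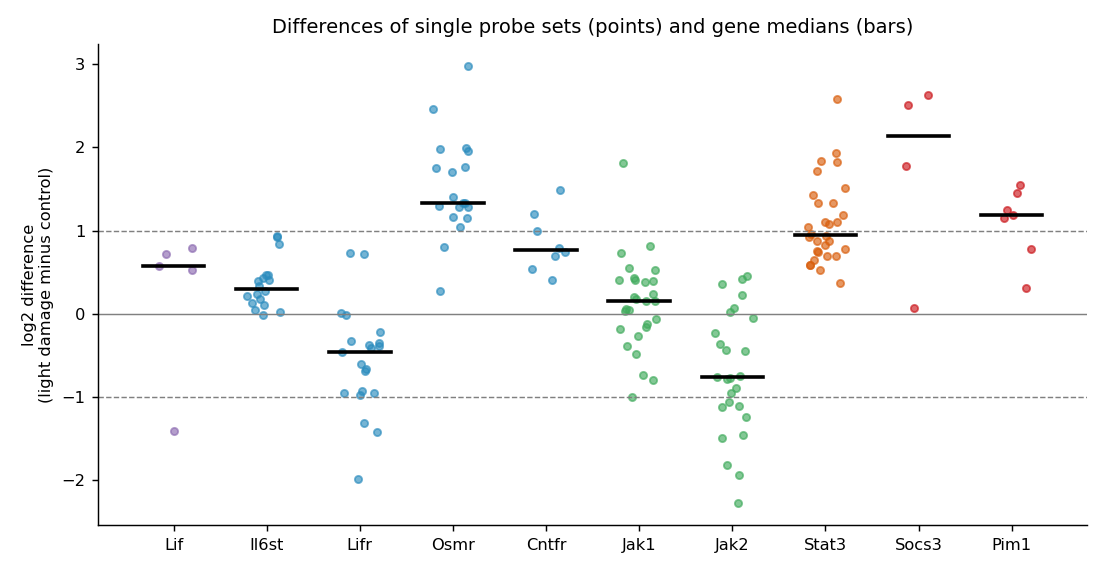
Points are the log2 differences (light damage minus control, y axis) of single probe sets for each gene (x axis), bars are the gene medians, and dashed lines mark 1 and −1. The Osmr, Cntfr, Stat3, Socs3 and Pim1 points all lie above 0, and most Lifr and Jak2 points lie below it.

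Of the remaining receptor subunits, Il6ra, the binding chain for IL-6, stood at 0.44 ± 0.92 over 10 probe sets (−0.51 in its highest-level probe set) and Il27ra at −0.06 ± 1.18 over 15 (−0.79 in its highest-level probe set). Il11ra1, the binding chain for interleukin-11, was at 7.70 in the control and 6.69 after light damage in its single probe set, a difference of −1.01. It came back within 1 under each rescaling of the arrays and with the offset.

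Neither kinase gene reached 1 in either direction. Jak1, the kinase that gp130 signalling depends on most, was read by 28 probe sets with control levels from 4.60 to 11.7 (median 9.60) and light damage levels from 5.33 to 11.8 (median 9.87). Probe sets lay on either side of 0 (18 above, 10 below), and the difference of 0.16 ± 0.56 was well within their spread. The probe set with the highest level differed by 0.05.

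Jak2, which gp130 shares with many hormone and growth factor receptors, stood lower. Its 26 probe sets ranged from 6.56 to 10.7 in the control (median 8.79) and from 4.75 to 10.2 after light damage (median 7.87). Of these 20 were below 0 (9 at −1 or less) and 6 were above 0. The difference was −0.76 ± 0.75, or 1.70-fold lower, and its probe set with the highest level differed by −0.44. The log2 ratio of Jak1 to Jak2 was 0.92 higher after light damage, or 0.49 between the brightest probe sets.

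The other members of the kinase family stood above 0. Jak3, known from lymphocytes, was at 6.49 in the control and 7.98 after light damage, with 25 of 26 probe sets above 0 and a difference of 1.03 ± 1.06. It was within 1 with the offset of 32, with its highest-level probe set, and when probe sets below 5 on both arrays were left out. Tyk2 differed by 0.36 ± 0.85.

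Stat3, the transcription factor of the pathway, stood higher in every probe set. The 30 probe sets ran from 6.05 to 11.9 on the control array (median 8.86) and from 6.76 to 12.5 after light damage (median 10.0). The lowest difference was 0.37 and the highest 2.58, and 14 of the 30 were higher by 1 or more. The gene's difference was 0.95 ± 0.50 (1.93-fold), rank 335 of 16541, just inside 1. It passed 1 with quantile normalization (1.05), with removal of a loess trend (1.05) and with the mean of the probe sets (1.09), and was 0.53 in the probe set with the highest level.

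The remaining STAT genes lay above 0 as well. Of 5 with a value, 4 were counted genes, and all 4 lay between 0 and 1, around a median of 0.66. They were Stat2, which carries interferon signals, at 0.87 ± 1.13 (23 of 27 probe sets above 0), Stat6 at 0.69 ± 0.82 (21 of 24), Stat5a at 0.63 ± 0.66 and Stat5b at 0.37 ± 0.52. Stat3, Stat5a and Stat5b are direct neighbours in the genome.

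Socs3, the feedback inhibitor of gp130 signalling, had the largest median difference of the 10 genes, whereas between brightest probe sets Osmr (1.99) exceeded it (1.78). Its 4 probe sets had control levels of 6.40, 6.77, 7.61 and 8.22 and light damage levels of 9.03, 9.28, 7.68 and 9.99, in the same order. In this order the third differed by 0.07 and each of the others by more than 1, and the ranges of both arrays overlapped. The difference was 2.14 ± 1.18 (4.42-fold), rank 22 of 16541. The probe set with the largest difference (2.63) has a number far from those of the remaining 3, and without it Socs3 stood at 1.78.

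STAT3 binds DNA at sites in which the letters TTC and GAA, which are reverse complements, are held apart by a few bases. Both strands read the same for such a motif, and it was searched as TTCNNNGAA, with 3 bases between, and with 4 bases between the same letters, in the 250 bases before each RefSeq start of assembly GRCm38.p6. Among the 10 genes, with 17 start sites, the first spacing was found in 1, Socs3, and the second in none. Of all 32851 windows of this length, 7.02% hold the first and 5.85% the second. The Socs3 match is shown as the only one among the 10 genes, with the motif in capitals and a few bases around it. It begins 154 bases before the start used and lies at chr11:117969501-117969530, minus strand. That start lies inside the annotated span of the gene, which reaches further upstream, so the stretch printed is within the annotated gene, and whether it is exon or intron was not analysed here. A match is a description of letters and not a measured binding site.
Socs3: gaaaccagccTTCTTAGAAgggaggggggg

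Of the other Socs family genes, none of 7 reached 1 in either direction and their median was −0.001. The nearest was Socs1, the inhibitor best known for interferon signalling, at 6.78 in the control and 7.30 after light damage, a difference of 0.78 ± 0.24 with 4 of 4 probe sets above 0. The log2 ratio of Socs3 to Socs1 was 1.36 higher after light damage, although the lowest Socs3 probe set (0.07) lay below the highest Socs1 probe set (0.83).

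Other inhibitors act on STAT proteins or JAK kinases by other means. The 4 Pias genes, whose products bind STAT proteins in the nucleus, lay between −1 and 0 with a median of −0.44, although Pias4 (−0.02) turned above 0 under every rescaling of the arrays. The lowest were Pias3, the inhibitor named for STAT3, at −0.79 ± 0.57 (14 of 17 probe sets below 0) and Pias1 at −0.54 ± 0.52 (15 of 17). Of 4 phosphatase genes, Ptpn2, which removes phosphate from JAK and STAT proteins, stood at −0.66 ± 0.87 (−1.0 in its brightest probe set) and the median was −0.15. Over all 15 feedback and phosphatase genes beside Socs3, none passed 1 in either direction and the median was −0.25. Read from the brightest probe sets, 1 of them was higher (Ptpn1 at 1.28) and 1 was lower (Ptpn2), Ptpn11 turned from −0.38 to 0.42 and the median was 0.01. Of all genes, 5.9% were higher and 7.2% lower in that reading.

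Pim1, a serine/threonine kinase gene that STAT factors switch on and that favours cell survival, stood higher. Its 7 probe sets ran from 5.77 to 9.45 in the control (median 7.43) and from 6.92 to 10.5 after light damage (median 8.95). All 7 were above 0 and 5 were higher by 1 or more, from 0.31 to 1.55, with a difference of 1.19 ± 0.43 (2.29-fold), rank 162 of 16541. Its relatives stood at 1.01 ± 0.89 (Pim3, 6 of 7 probe sets above 0) and 0.29 ± 0.48 (Pim2, whose brightest probe set lay at −0.72), and Pim3 was within 1 with the offset of 32 or the mean of its probe sets.

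**Figure D4:**
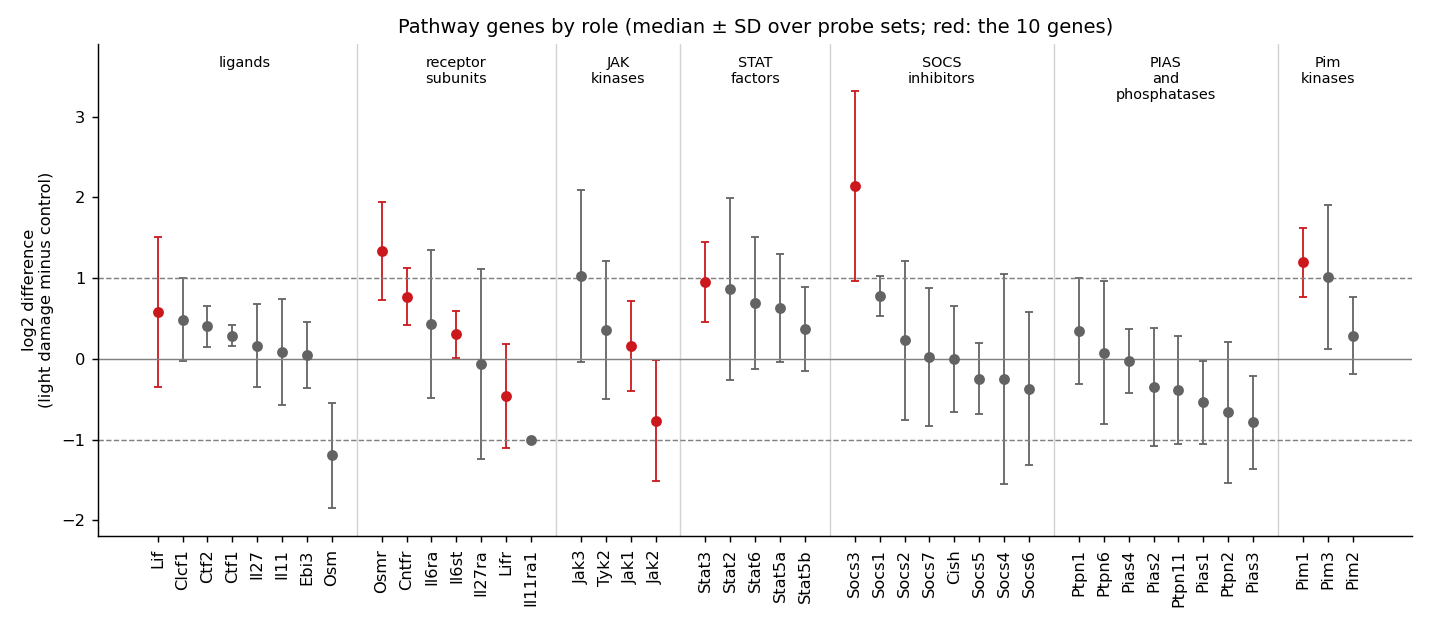
Log2 differences (light damage minus control, y axis) of the counted pathway genes, sorted by role along the x axis; points are medians over probe sets, error bars the SD over probe sets (none for Il11ra1, read by 1), red marks the 10 genes and dashed lines 1 and −1. Osmr, Socs3 and Pim1 have the highest differences of their groups, and the 5 STAT genes lie above 0.

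Together with the 10 genes, 45 genes of the pathway had a value, and 43 were counted genes. Of these, 5 (11.6%) stood at 1 or above, 2 at −1 or below and 36 between, around a median of 0.23. Over all counted genes, the shares were 1.75% at 1 or above and 3.48% at −1 or below.

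Genes that STAT3 is known to drive were taken as a list. Of its 21 counted genes, 12 (57.1%) reached 1 and none passed −1, around a median of 1.15. Among the 12, Myc stood at 4.92 in the control and was counted only through its level after light damage (7.47). Timp1 (5.09) and Gfap (5.68) were also low in the control, where the background limits a difference. The shares over all counted genes were 1.75% and 3.48%. Read from the brightest probe set alone, 10 reached 1, 2 passed −1 (Fgb at −1.63 and Hif1a at −1.31) and the median was 0.56. In that reading 5.9% of all genes reached 1 and 7.2% passed −1. Gfap, the filament gene that marks reactive glia, stood at 3.05 ± 1.08 and at 1.45 in its brightest probe set. The protease inhibitor gene A2m stood at 3.0 ± 1.29 with 33 of 34 probe sets above 0, but at 0.04 in its highest-level probe set. Transcription factor genes among them were Cebpd at 2.0 and Cebpb at 1.19 in 1 probe set each, Junb at 1.85 ± 0.48, Klf4 at 1.62 ± 1.15, Myc at 1.41 ± 0.67, Irf9 at 1.24 ± 0.43 and Bcl3, a partner of NF-kB, at 1.15 ± 0.77. The metalloprotease inhibitor gene Timp1 (1.79 ± 1.33), the receptor gene Tnfrsf1a (1.40 ± 0.72) and the adhesion gene Icam1 (1.13 ± 0.64) completed the higher genes. Klf4 (0.46) and Timp1 (0.56) were within 1 in their highest-level probe sets, and Icam1 (0.85) was with the offset. Other targets lay within 1: Fos, a subunit of the AP-1 factor, was at 0.79 ± 0.60, the cyclin gene Ccnd1 at 0.58 ± 0.34, the survival gene Mcl1 at 0.47 ± 0.35 and the hypoxia factor gene Hif1a at −0.92 ± 0.49. The study picked Gfap, Timp1 and Myc by their rank on these arrays, and it reported larger increases for Timp1 and Myc than those here. Other pathways switch on many of the listed genes too, so the list is not independent evidence.

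Immediate early genes, which stress and cell dissociation switch on quickly, moved with the same comparison. All 20 were above 0, except that Egr3 was below it in its highest-level probe set, and 11 reached 1, around a median of 1.40. With quantile normalization or removal of a loess trend 16 reached 1, and with the brightest probe sets 9 did, around a median of 0.95. Of all genes, 1.75% reached 1 in the main reading and 5.9% with the brightest probe sets. Quantile normalization gave 2.17% and removal of a loess trend 2.14%. The largest were Atf3 (2.64 ± 0.91), Egr2 (2.53 ± 0.68) and Klf6 (2.39 ± 0.95, or 1.64 in its brightest probe set). The study had picked Atf3 and Egr2 in part by their increase on these arrays, so these 2 are not independent evidence. Socs3 and Pim1 can be switched on by the same stimuli, and the part of this response in their differences was not tested. Without its 3 genes that are also immediate early genes, the STAT3 target list had 10 of 18 at 1 or above, Myc among them. The median was 1.14.

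Other cells that a sorted fraction can hold also express gp130 receptors and Socs3, so their markers are given beside these results. Endothelial and pericyte markers were all 11 above 0 and 1 of them, Rgs5, reached 1 (1.13 ± 0.70), around a median of 0.45. Their summed linear level was 6392 on the control and 8564 on the light damage array. Kdr and Flt1 made up 84.9% of the control sum, and the 9 others summed to 968 and then 1578. In the control these 2 stood at log2 levels of 11.9 and 10.6, and the 9 others from 5.46 to 8.95. The sum thus read mainly these 2 genes. Of 11 microglia and macrophage markers with a value, 9 were counted genes and 1 of these, Cd68, reached 1 (1.45 ± 1.02), around a median of 0.03, and the summed level of the 11 was 710 and then 813. Of 5 genes listed as astrocyte markers, none passed 1. Their summed level was 1253 and then 1559, of which Igf2 and Aldh1l1 made up 79.9% in the control. The 3 others summed to 251 and then 224. Whether Igf2 and Aldh1l1 read astrocytes here was not tested. The lowest control levels were 5.46 for endothelial and pericyte markers and 4.50 for microglia. No probe set of the arrays lay below 1.57, so a level alone does not show that a cell type was present. Counted microglia and macrophage markers had a control median of 6.21, against 7.11 over all counted genes. Markers of neurons are given as well. Rod markers summed to 71001 on the control and 39066 on the light damage array, and cone markers to 10128 and 4603. Of 8 cone markers, 4 stood at −1 or less, around a median of −0.99. Of 7 bipolar markers 1 stood at −1 or less (median −0.34), and of 10 counted amacrine and ganglion cell markers none did (median −0.21). The part of any of these cells in the differences of the 10 genes, the lower Lifr and Jak2 among them, was not tested.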

How the data were processed

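Sorted MG of 12 undamaged and 10 light damaged retinas gave 1 pooled RNA per condition, run on the Affymetrix Mouse Gene 1.0 ST platform. Normalization was done by the authors with Affymetrix Power Tools and TM4 Multi-Experiment Viewer, per the labels and the methods. For versions, background correction and the summary of probes, nothing is given in the sources used here. Deposited were log2 levels of exon-level probe sets, from 1.57 to 14.8, with medians of 7.02 (control) and 6.99 (light damage).

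Probe sets were matched to genes through the platform annotation (212138 to 1 gene, 4672 to several, 24766 to none), and old symbols were replaced through RefSeq synonyms. A gene's value is the median over the probe sets of that gene alone. The threshold was a difference of 1, applied to genes reaching a mean level of 5. No test between single arrays was possible. The 10 genes and all lists were chosen with earlier results of these data known. Genes named are the 10, genes of the other pathway and target lists past 1 and up to 4 more of each with the largest differences, and the leading immediate early genes. Xist, Cd68, Rgs5, Il27ra, Tyk2, Pias4, Egr3, Fgb, Ptpn1, Ptpn11, Kdr, Flt1, Igf2 and Aldh1l1 were named after their values were seen. Of the pathway lists, 4 genes were not analysed here.

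Alternatives were quantile normalization, median centring, removal of a loess trend (span 0.3), an offset of 32, the mean or the highest-level probe set, leaving out probe sets below 5, no minimum level, a mean level of 7, thresholds of 0.58 and 2, and genes with 3 or more probe sets. Chosen after seeing the data were leaving out a Socs3 probe set, the STAT3 target list without immediate early genes, marker sums without their 2 highest markers, and the shares among genes with 4 or 15 probe sets. Python 3.11.15, numpy 2.4.6, pandas 2.3.3, statsmodels 0.14.6 and matplotlib 3.10.9 were used, and the gene values were tested on simulated data.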

Additional observations from a re-analysis of the deposited data

How the results depend on the processing

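Of the 10 genes, 3 or 4 reached 1 and none passed −1 under every rescaling, summary and filter tried, the fourth being Stat3. Other thresholds changed the counts by construction: at 0.58, 5 genes were higher and 1 was lower, and at 2, 1 was higher. The median of the 10 ranged from 0.55 (offset of 32) to 0.77 (mean level of 7, which leaves out Lif), and none of the 10 changed sign. Osmr ranged from 1.29 to 1.99, Pim1 from 1.10 to 1.28, Socs3 from 1.75 to 2.22, Lifr from −0.95 to −0.36 and Jak2 from −0.76 to −0.44. In the highest-level probe set, Osm turned to 0.20 and Egr3 to −0.068, and the cause was not tested. With the offset, 155 of the 16541 counted genes were higher and 309 were lower. At 0.58 these counts were 1331 and 2304, and at 2 they were 27 and 9. With the highest-level probe set, 18757 genes reached the minimum level, of which 1107 (5.9%) were higher and 1342 (7.2%) lower. Signal near background limits a difference, which bears most on Lif. No replicate exists that could be left out. No paired analysis was possible because each condition has 1 array.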

Other observations

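Cytokine receptors outside the IL-6 family ranged from −0.58 to 0.54. Of 13 counted genes, none passed 1 in either direction, and the median was 0.14. Ifngr1, a chain of the interferon gamma receptor, stood at −0.58 ± 0.59 and Il13ra1, a chain of the interleukin-13 receptor, at 0.53 ± 1.08. Csf3r, the receptor for granulocyte colony-stimulating factor, stood at 0.54 ± 0.97 and Ifnar1, a chain of the type I interferon receptor, at −0.34 ± 0.53, and both changed sign in the highest-level probe set (−0.11 and 0.02). Whether the gp130 receptors differ from these as a group was not tested.

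The motif TTCNNNGAA was found before the start of 4 of 20 genes of the STAT3 target list (20.0%), against 8.13% of all 27025 genes with a RefSeq window. With 4 bases between the same letters, the counts were 2 of 20 (10.0%), against 6.76% of all. Among 26 further pathway genes TTCNNNGAA was found in none, and the same letters with 4 bases between them in 1, Stat2. These are counts of letters in windows of 250 bases, and sites outside the windows were not searched. The Stat2 match is shown as the only one among those genes, with the motif in capitals. It begins 210 bases before the start and lies at chr10:128270278-128270307 of GRCm38.p6, plus strand.
Stat2: tcagtttcctTTCCCTAGAActcacggttc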
